A study of Rattus norvegicus with 38 samples.

Results

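In failing rat hearts, 79 of 24057 genes had lower levels than in healthy hearts in both parts of the sinoatrial node and in both atria. These genes were selected on their measured TPM values (a level corrected for transcript length and scaled so that all libraries have 1 common total). The regions that chose them were the left and right atrium (LA and RA) and the superior and inferior parts of the sinoatrial node (sSAN and iSAN). In each of these 4, the highest failing library had to lie below the lowest healthy one, and the healthy mean plus 1 TPM had to be at least 1.4 times the failing mean plus 1 TPM. The left ventricle (LV) had no part in the choice and is the region in which the same genes were tested. The healthy and failing levels in the 4 choosing regions are therefore given as a description, with no test.

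The series is about how the 2 node parts change when the rat heart is hypertrophic. Male Sprague-Dawley rats aged 10 weeks were used, and per the labels' protocols a constriction was placed around the ascending aorta of pups at 1 week of age. Each of the 4 choosing regions had 4 failing and 4 healthy libraries. The left ventricle had 4 failing and 2 healthy ones. A library is called here by its title, which joins a region and a 4-digit code. The failing libraries of the right atrium are RA_0409, RA_0506, RA_0507 and RA_0508 and its healthy ones RA_0920, RA_0921, RA_1001 and RA_1002, and the other regions have the same codes, the healthy left ventricle only LV_1001 and LV_1002. Titles of healthy node libraries start with SB (inferior) or ST (superior) in place of iSAN or sSAN. Values of single libraries are listed in the order of these codes. The healthy libraries carry this protocol text too, so that the treatment of the healthy rats is not known from it. Whether a code stands for an animal is not in the labels, so p-values may measure only the spread between these libraries. No code occurs in both states, so a batch tied to the codes and the health state cannot be told apart. The left ventricle libraries share their codes with the libraries that chose the genes, so that the region was held out but the codes were not.

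The sinoatrial node is the small strip of tissue in the wall of the right atrium in which each heartbeat starts. Its pacemaker cells lie among connective tissue and border on atrial working muscle, while the left ventricle is made mostly of working muscle cells that pump blood into the aorta. A narrowed aorta makes that ventricle pump against a higher pressure, and its wall thickens. Each value here is an average over all cells of a tissue piece, so fewer cells of a type and less RNA per cell cannot be told apart. The files give Ensembl gene IDs without names, and 0 of the 79 IDs matched the reference table, so the roles of the genes are not described and the labelled tissues were not checked against marker genes. The IDs of 2 genes are given, the one with the largest mean reduction and the one with the highest level, and other genes are described by their values. The 38 libraries held 17406473 to 27355777 estimated counts.

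The superior node set the size of the group. The rule was met by 797 genes in iSAN, 127 in sSAN, 3075 in RA and 3075 in LA. In iSAN, RA and LA together 608 genes met it, and 602 of these had a lower failing mean in sSAN, but 509 (83.7%) had at least 1 failing superior node library at or above a healthy one. For 384 of the 608 genes the lowest healthy superior node library was ST_0921, for 211 it was ST_1001, and for 405 the highest failing one was sSAN0409. On TPM the genes of the group were at a median of -0.25 (log2 relative to the healthy mean) in ST_0921 and at 0.22 in ST_1002. After rescaling the TPM values by TMM factors, which align the bulk of genes between libraries, these values were 0.02 and 0.03. Rescaled in this way, 262 genes met the rule, among them 67 of the 79, and without ST_0921 and the 3 libraries of its code in the other regions the rule was met by 276. Without ST_1001 and its code the number was 163, without sSAN0409 and its code 159, and without sSAN0506 and its code 156. The mirrored rule for genes raised in failing hearts was met by 462 genes on deposited TPM and 568 on rescaled TPM.

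The 3 members nearest to the threshold had smallest ratios of 1.412, 1.414 and 1.415, and the 3 nearest genes outside it, with libraries that did not overlap in any of the 4 regions, had 1.397, 1.390 and 1.387. All 6 of these smallest ratios were in sSAN. The group thus has no gap at its edge.

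Most of the 79 genes were of middling abundance in healthy hearts. Their mean over the 16 healthy node and atrial libraries had a median of 20.5 TPM, against 10.2 TPM over the 12439 genes of at least 1 TPM. It was under 10 TPM for 28 genes, of which 6 were under 2 TPM, between 10 and 100 TPM for 40, between 100 and 1000 TPM for 6 and above 1000 TPM for 5. Failing hearts kept a median of 44.0% of the healthy level.

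The median ratio of healthy to failing level, each with 1 TPM added, was 2.15 in iSAN (range 1.42 to 7.95), 1.86 in sSAN (1.41 to 5.34), 2.27 in RA (1.62 to 6.87) and 2.65 in LA (1.44 to 14). A ratio of at least 2 was seen for 46, 32, 55 and 66 genes in these regions, and 29 genes had it in all 4. A ratio of at least 4 in all 4 regions was seen for 1 gene, and 7 genes stayed under 2 in every region. The reduction was largest in LA for 53 genes and smallest in sSAN for 59. Part of this order depends on the scaling. On rescaled TPM the left atrium had the largest reduction for 42 genes, and the smallest was in sSAN for 30 and in RA for 29. The median log2 reduction then was 1.2 in iSAN, 1.04 in sSAN, 0.94 in RA and 1.2 in LA, whereas on deposited TPM it was 1.11, 0.89, 1.18 and 1.41. The deposited TPM of all genes of at least 1 TPM moved by a median of 0.10, 0.11, -0.23 and -0.19 (log2, failing minus healthy) in the same regions. With counts and TMM scaling, all 78 genes that passed the count filter in iSAN and all 79 in each of the other 3 regions had a lower fitted level in failing hearts.

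**Figure D1:**
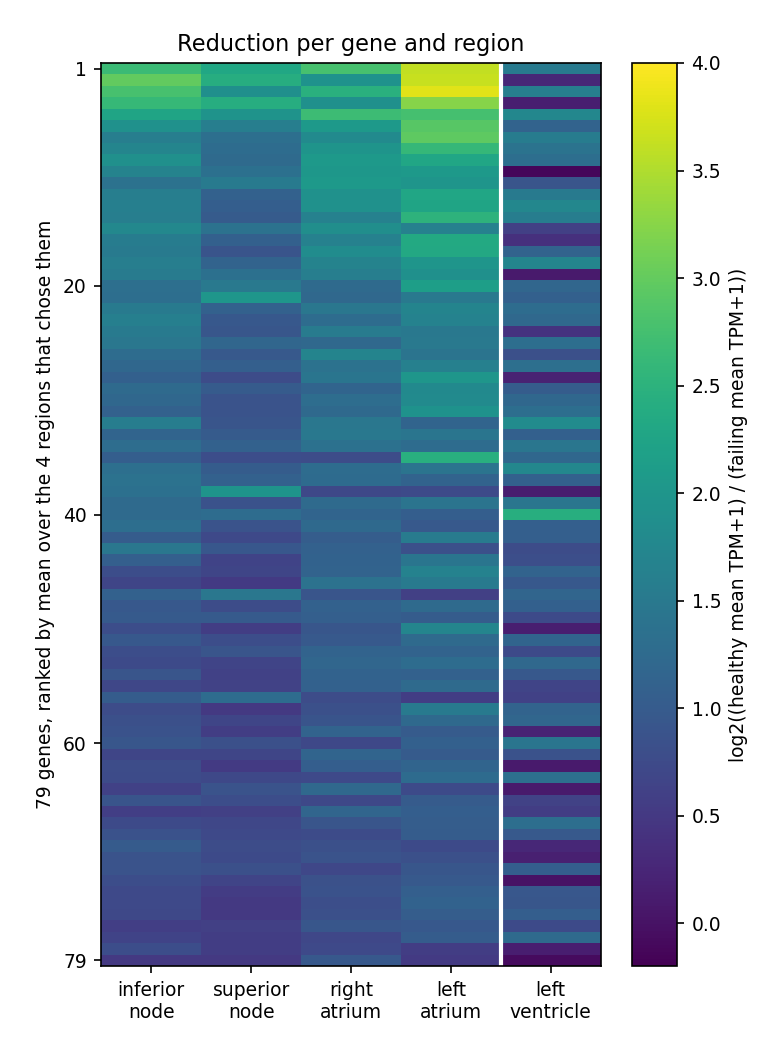
Each row is 1 of the 79 genes, ranked by its mean over the 4 choosing regions, and each column is a region; the colour is log2 of the healthy mean plus 1 TPM over the failing mean plus 1 TPM. The left atrium column holds the brightest cells, with a highest ratio of 14, and the left ventricle column, to the right of the white line, mixes high values with values near 0 also among the highest-ranked genes.

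The gene with the largest mean reduction was ENSRNOG00000025868. In iSAN its healthy libraries held 15.5, 8.77, 9.48 and 22.1 TPM and its failing ones 1.5, 2.87, 0.487 and 0.522 TPM. In sSAN the healthy libraries held 10.5, 5.28, 10.2 and 18.6 TPM and the failing ones 2.03, 2.44, 0.995 and 0.418 TPM. In both node parts the lowest healthy libraries were SB_0921 and ST_0921, the highest healthy ones SB_1002 and ST_1002, and the highest failing ones iSAN0506 and sSAN0506. The healthy right atria held 22.9, 30.5, 21.7 and 41.3 TPM and the failing ones 3.10, 8.85, 1.24 and 0.350 TPM. The healthy left atria held 22.3, 26.7, 19.5 and 29.8 TPM and the failing ones 2.17, 1.19, 0.267 and 0.729 TPM. The groups were thus apart by the choice of genes, and the failing libraries themselves differed widely, most of all in RA, where the mean was 3.38 ± 3.82 TPM (SD, n = 4). The ratio with 1 TPM added was 6.38 in iSAN, 4.91 in sSAN, 6.87 in RA and 12.2 in LA. Without the added 1 TPM, which shrinks the ratio of low values, it was 10.4, 7.57, 8.61 and 22.5.

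The gene with the highest level was ENSRNOG00000031053. Its healthy libraries held 29453, 36320, 23106 and 27658 TPM in iSAN, and its failing ones 14994, 10155, 12287 and 9579 TPM. In sSAN the healthy libraries held 30128, 40620, 26398 and 23958 TPM and the failing ones 14212, 20410, 16698 and 14933 TPM. Here SB_0921 and ST_0921 were the highest healthy libraries of the node parts, the reverse of their place for ENSRNOG00000025868. In RA the healthy libraries lay between 25577 and 27348 TPM and the failing ones between 10816 and 11669 TPM, the tightest groups of the 4 regions. The healthy left atria held 25653, 25140, 19187 and 29146 TPM and the failing ones 14552, 11941, 11387 and 12761 TPM. The ratio was 2.48 in iSAN, 1.83 in sSAN, 2.34 in RA and 1.96 in LA.

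**Figure D2:**
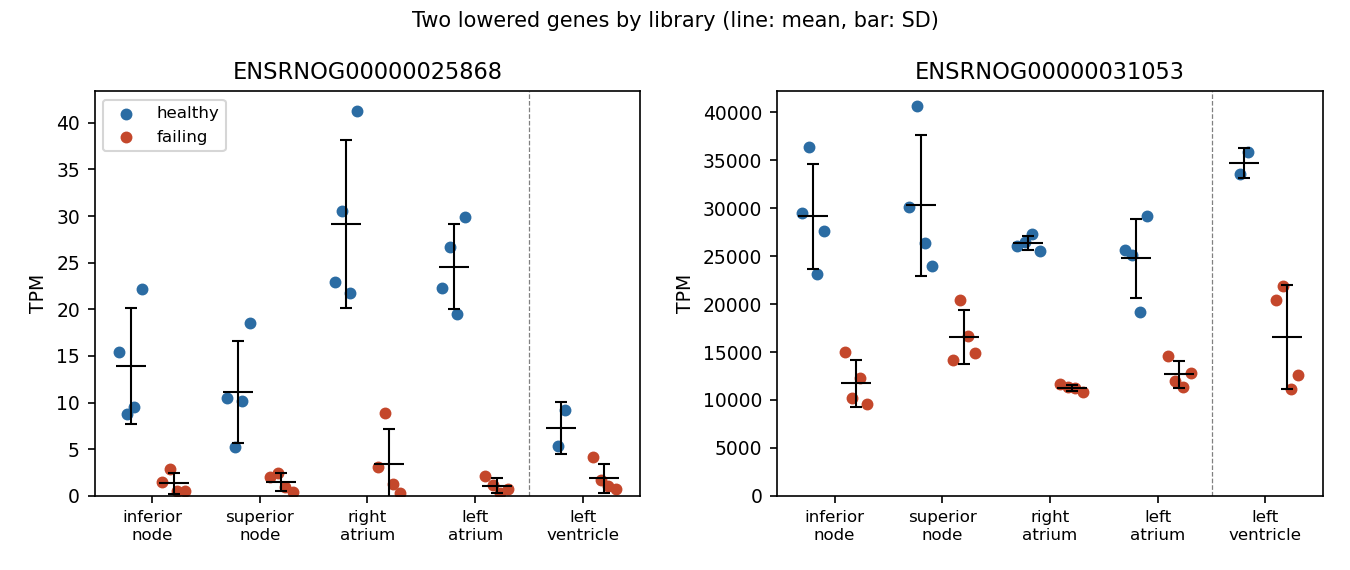
TPM of ENSRNOG00000025868 (left panel) and ENSRNOG00000031053 (right panel) in every library by region, healthy in blue and failing in red, with the mean as a line and the SD as a bar. In the left ventricle, right of the dashed line, the failing libraries of both genes also lie below the 2 healthy ones, at up to 4.12 TPM against 5.33 and 9.23 TPM for the first gene.

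The genes ranked second to sixth by mean reduction were all at least 10 TPM in healthy atria. The second held 154 ± 21.0 TPM in healthy and 11.4 ± 4.59 TPM in failing left atria (SD, n = 4 each), and 46.4 ± 22.9 and 7.87 ± 3.69 TPM in sSAN. The third held 167 ± 5.47 TPM in healthy and 11.0 ± 7.34 TPM in failing left atria, a ratio of 14 and the highest of any gene of the group in any region, against 3.71 in sSAN. The fourth held 132 ± 54.1 and 13.2 ± 6.34 TPM in the left atria. The fifth held 10.2 ± 1.88 and 0.649 ± 0.471 TPM there, and the sixth 85.2 ± 12.5 and 10.5 ± 3.47 TPM. For each of the leading 6 genes the left atrium had the largest of the 4 ratios on deposited TPM, and on rescaled TPM it had the largest for 6 of the 6.

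At the other end of the range stood 5 very abundant genes, with healthy means of 27640, 21845, 16071, 11635 and 9815 TPM. All 5 were among the 20 genes with the highest healthy level in these regions. Together they made up 9.04 ± 1.57% of TPM in healthy and 3.82 ± 0.739% in failing inferior nodes, 9.56 ± 1.65% and 5.35 ± 0.761% in superior nodes, 8.24 ± 0.215% and 3.76 ± 0.0633% in right atria and 7.96 ± 0.942% and 4.22 ± 0.292% in left atria (SD, n = 4 each). Unlike the leading 6 genes, each of these 5 had its largest ratio in iSAN, at 2.48, 2.98, 2.0, 1.74 and 2.62. On rescaled TPM the inferior node was again the largest for each of the 5, and the left atrium the smallest, at 1.69, 1.91, 1.44, 1.27 and 1.89. Since TPM values of a library share 1 fixed total, a change in so large a share moves the TPM of other genes as well, by an amount that was not tested.

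On deposited TPM, each choosing region had 1 failing library that was either the lowest or the highest for most of the genes. RA_0508 was the lowest failing right atrium for 63 of the 79 genes and RA_0506 the highest for 65. Among left atria LA_0507 was the lowest for 64, among superior nodes sSAN0508 for 52, and among inferior nodes iSAN0506 was the highest for 61. At the other end of these regions no library held most of the genes. There LA_0409 was the highest for 38, sSAN0506 the highest for 36 and iSAN0508 the lowest for 33. Whether this order is particular to the 79 genes was not tested. The median log2 level relative to the healthy mean ran from -0.85 (iSAN0506) to -1.25 (iSAN0507), from -0.73 (sSAN0506) to -1.13 (sSAN0508), from -0.79 (RA_0506) to -1.53 (RA_0508) and from -1.21 (LA_0508) to -1.81 (LA_0507). The same code was thus the least lowered in 3 of the 4 regions on deposited TPM, but with rescaled TPM iSAN0409 was the least lowered of its region, at -0.90 against -1.11 for iSAN0506. Failing libraries were more spread than healthy ones for 52 of the 79 genes in iSAN, 65 in RA and 58 in LA. Of all genes of at least 1 TPM this held for 72.7%, 76.3% and 81.8%. In sSAN the healthy libraries were the more spread ones, with the failing spread larger for 22 of the 79 genes and for 33.0% of all genes. Since the rule kept genes whose groups did not overlap, it bears on these spreads, and the numbers are a description.

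**Figure D3:**
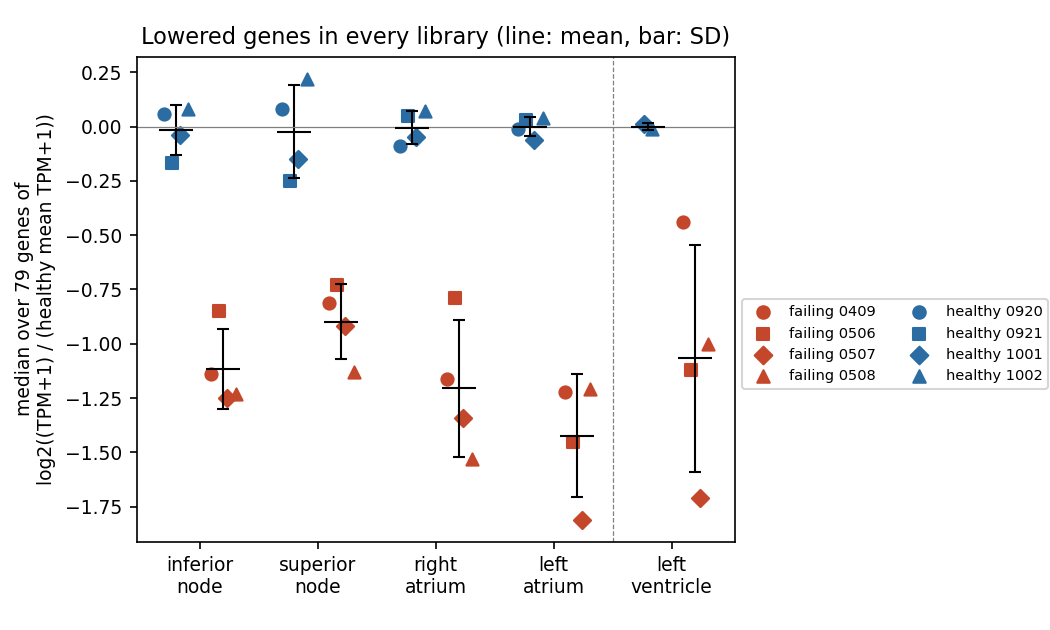
For each library, the median over the 79 genes of log2 of TPM plus 1 over the healthy mean of its region plus 1, healthy in blue and failing in red, with symbols for the codes, the group mean as a line and the SD as a bar. The failing libraries of the left ventricle, right of the dashed line, run from -0.44 (LV_0409) to -1.71 (LV_0507), a wider range than in any of the choosing regions on this scale.

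In the left ventricle, which had no part in the choice, most of the genes had again a lower level in failing hearts. The number that passed the adjusted threshold was 0 to 9 in fits of the ventricle alone. It was 46 in a fit that also held the choosing regions. Of the 79 genes, 75 passed the count filter there, and the other 4 had at most 7.82 estimated counts in any library. With edgeR's quasi-likelihood test 67 of the 75 genes (89.3%) had a lower fitted level, against 48.0% of the 13670 genes tested, and their median log2 difference was -0.98, against 0.03 over all genes. The difference was at least 2-fold lower for 37 genes (5.06% of all genes) and at least 2-fold higher for 1. For 57 of the 75 genes every failing library lay below both healthy ones in CPM (counts scaled to library size), against 17.3% of all genes. Every failing library lay above both healthy ones for 0 of the 75, against 15% of all genes. At a Benjamini-Hochberg adjusted p under 0.05, edgeR called 0 genes lower, in the group and among all genes (0%), and the lowest adjusted p in the group was 0.226. At an unadjusted p under 0.05 it gave 38 of the 75 lower and 0 higher, against 3.88% of all genes lower. This number was 16 without the healthy library LV_1001 (1.03% of all genes) and 11 without LV_1002 (0.931%). DESeq2 called 9 of the 75 lower (0.557% of all genes), with log2 differences of -0.91 to -3.51. A single edgeR fit of all 38 libraries called 46 of the 79 lower (7.58% of all genes), the 9 among them. In that fit the 2 healthy ventricles borrow the spread of the other groups, most of which chose the genes. The rule kept genes whose libraries did not overlap there, so the 46 are not a held-out result. Libraries of the same code were treated as independent in it. The limma test on log2(TPM + 1) called 0 of the 75 (0.0146% of all genes).

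The reduction was seen in each of the 4 failing ventricles. The median log2 level relative to the healthy ventricles was -0.62 in LV_0409, -0.74 in LV_0506, -0.99 in LV_0507 and -1.43 in LV_0508, in CPM with TMM scaling, and 68, 64, 62 and 73 of the 75 genes lay below both healthy libraries in them, against 39.2%, 42.2%, 49.5% and 44.3% of all genes. The order of the libraries depended on the scaling, since on deposited TPM LV_0507 was the lowest, at -1.71. On deposited TPM 74 of the 75 genes had a lower failing mean (67.5% of all genes tested) and 63 did not overlap (15.7%). On rescaled TPM these numbers were 67 (49.5%) and 57 (16.9%). The 67 genes that met the rule on rescaled as well as on deposited TPM include 64 tested in the ventricle, of which 58 were lower and 51 did not overlap, with a median log2 difference of -1.09.

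For ENSRNOG00000025868 the 2 healthy ventricles held 5.33 and 9.23 TPM and the failing ones 4.12, 1.66, 1.05 and 0.707 TPM. LV_0409 came closest to the healthy ones, and the groups did not overlap. The edgeR log2 difference was -1.56 (SE 0.64), with an adjusted p of 0.441. For ENSRNOG00000031053 the healthy ventricles held 33560 and 35807 TPM and the failing ones 20416, 21914, 11179 and 12616 TPM, again without overlap. Its edgeR log2 difference was -0.56 (SE 0.49), with an adjusted p of 0.616. On deposited TPM, where the median of all genes moved by -0.20, its log2 ratio of healthy to failing was 1.07.

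The 5 genes with the largest reduction in the ventricle were mostly not those that led in the node and atria, where they ranked 5, 16, 40, 35 and 43. The first held 2.74 and 3.46 TPM in the healthy ventricles and 0.171, 0.278, 0.0574 and 0.405 TPM in the failing ones, with an edgeR log2 difference of -3.48 (SE 0.51) and an adjusted p of 0.226. The third held 33.0 and 24.3 TPM in the healthy ventricles against 11.0, 2.13, 1.35 and 3.44 TPM in the failing ones, a log2 difference of -2.47 (SE 0.55) with an adjusted p of 0.347. In neither gene did the groups overlap. The other 3 had healthy means of 0.353, 2.01 and 0.976 TPM and log2 differences of -3.28, -2.42 and -2.33. Across the 75 genes, which are not independent replicates, the reduction in the ventricle and the mean reduction in the 4 choosing regions had a Spearman coefficient of 0.45 and a Pearson coefficient of 0.34. The points share their codes, and the coefficients are given as a description.

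Of the 8 genes with a higher fitted level in failing ventricles, the largest difference was 1.13 (SE 1.14), in a gene at 0.214 TPM in healthy ventricles, with an adjusted p of 0.660. The next were 2 of the 5 very abundant genes, at 0.57 (SE 0.71) and 0.45 (SE 0.78), with adjusted p of 0.721 and 0.794. The deposited TPM of these 2 pointed the other way, with healthy means of 12635 and 19867 and failing means of 11371 and 16515. Their libraries overlapped, so the direction in the ventricle is not settled for them. The 3 other very abundant genes did not overlap on deposited TPM, with ratios of 2.10, 3.53 and 2.12, and of 1.5, 2.48 and 1.5 on rescaled TPM. All 5 together made up 11.7 ± 0.886% of TPM in healthy (SD, n = 2) and 6.06 ± 1.28% in failing ventricles (SD, n = 4).

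**Figure D4:**
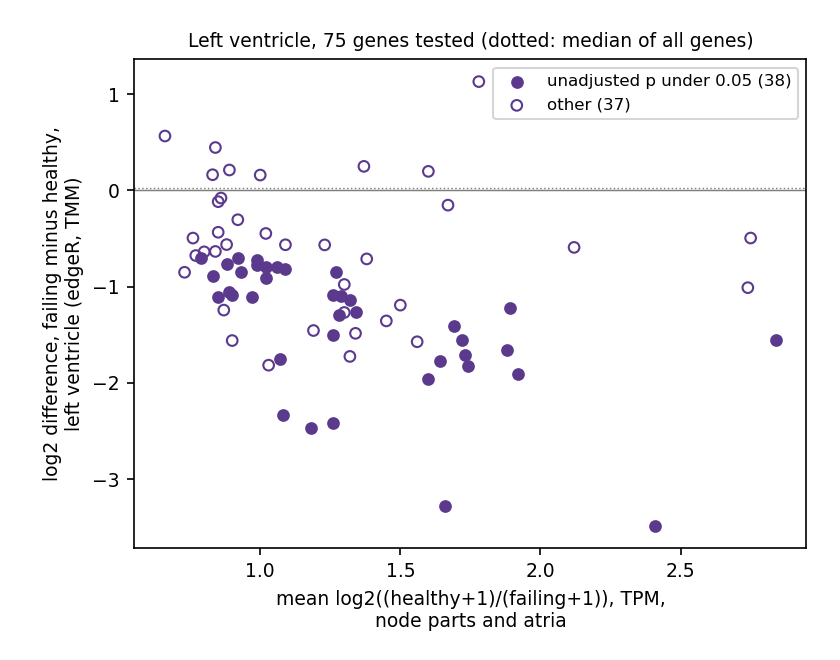
Each point is 1 of the 75 genes tested in the left ventricle: the edgeR log2 difference there (vertical axis, below 0 means lower in failing) against the mean log2 TPM ratio in the 4 choosing regions (horizontal axis), filled where the unadjusted p was under 0.05. Most points, 67 of 75, lie below 0, and the 38 filled ones all do.

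In healthy hearts the 79 genes differed in how their level in the ventricle compared with the other regions. The highest healthy mean was in LA for 26 genes, in RA for 24, in the left ventricle for 21, in iSAN for 5 and in sSAN for 3. The lowest was in the left ventricle for 42. For 8 genes (10.1%) the healthy ventricle was under 10% of the mean of the other 4 regions, against 3.18% of all genes of at least 1 TPM. For 4 genes (5.06%) it was at least 2 times that mean, against 1.02% of the same genes. The 8 include genes with a mean of 0.885 and 0.988 TPM, under the floor of 1 TPM set for all genes, so these shares are not fully alike. That mean also comes from healthy libraries whose levels the rule used.

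The genes ranked 2 and 4 by reduction were plentiful in node and atria and nearly without signal in the ventricle. The fourth held 150, 242, 123 and 191 TPM in healthy right atria, 57.8, 47.4, 46.6 and 74.3 TPM in healthy inferior nodes, and 0 and 0.361 TPM in the healthy ventricles. Its failing right atria held 39.8, 69.2, 50.4 and 25.4 TPM, and its failing inferior nodes 7.53, 9.29, 4.65 and 11.8 TPM. The second held 121, 114, 108 and 148 TPM in healthy right atria, 68.9, 38.3, 53.0 and 83.3 TPM in healthy inferior nodes, and 0.437 and 0.578 TPM in the healthy ventricles. Its failing right atria held 20.6, 62.9, 34.4 and 6.71 TPM. Both genes had their largest ratio of healthy to failing level in LA and their smallest in RA, at 9.39 and 12.4 and at 3.76 and 3.84 (the fourth gene first), with 6.16 and 7.95 in iSAN and 5.31 and 5.34 in sSAN. Their levels in the ventricle are too low to read a difference there.

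The opposite pattern was seen in a gene at 28.6 TPM in healthy ventricles and at 1.29 to 3.56 TPM in the other 4 healthy regions. It is the third gene of the ventricle's ranking above, and its ratio of healthy to failing level lay between 2.08 and 2.43 in the 4 choosing regions. Another gene held 150 TPM in healthy ventricles and 53.9 to 92.4 TPM in the other healthy regions, with an edgeR log2 difference of -0.71 (SE 0.47) in the ventricle and an adjusted p of 0.539.

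**Figure D5:**
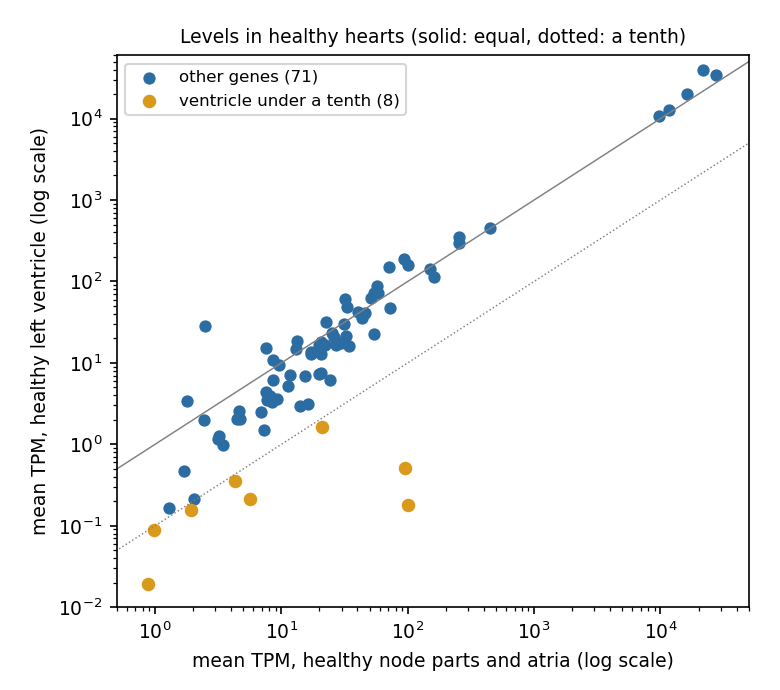
Mean TPM of each of the 79 genes in the healthy left ventricle (vertical) against its mean in the 4 other healthy regions (horizontal), both on log scales, with equal levels on the solid line and 10% on the dotted one. The 8 genes under 10% are in orange, and 2 of them, near 100 TPM on the horizontal axis, lie at 0.507 and 0.181 TPM in the ventricle.

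The levels in the healthy node parts and the healthy left atrium were compared with those in the healthy right atrium. The rule did not use these differences, but it did use the same healthy libraries. Its demand that failing and healthy libraries not overlap bears on the spread of the healthy ones too. The numbers that passed and the adjusted p of these genes are therefore not a held-out result. With edgeR and no pairing by code, 27 of the 79 genes passed between superior node and right atrium. Of these, 15 were higher (14.1% of all genes) and 12 lower in the node (9.03%). With the code as a replicate block 27 passed again, but 10 were higher (14%) and 17 lower (10.6%). With limma on log2(TPM + 1), which changes both the test and the scale, the split was 3 higher (5.48%) and 36 lower (34.7%), and the median of all genes moved by -0.31. Between inferior node and right atrium 18 passed, 4 higher (10.7%) and 14 lower in the node (6.89%). With the block 25 passed, 6 higher and 19 lower, against 1759 higher and 1294 lower of all 14129 genes. Between left and right atrium 21 passed, 10 higher (4.67%) and 11 lower in the left (4.47%), and with the block 38 passed, 22 higher (9.65%) and 16 lower (9.55%). The split of the superior node changed when some single libraries were left out. Without RA_0920 it was 3 higher (9.57%) and 11 lower (5.28%), without RA_0921 3 (8.79%) and 7 (4.75%), without RA_1001 4 (9.66%) and 8 (5.41%), without RA_1002 8 (9.66%) and 6 (5.12%), and without ST_0920 8 (10.0%) and 8 (6.84%). Without ST_0921 the split was 8 higher and 12 lower, against 1587 and 1283 of all 14261 genes. Without ST_1001 it was 17 and 11 (2139 and 1490 of 14306), and without ST_1002 16 and 15 (2121 and 1283 of 14267). The 21 of the left atrium fell to 12 without RA_0921, 6 higher (3.62%) and 6 lower (3.60%).

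The largest of these regional differences ran in both directions. The fourth gene by reduction was lower in both node parts than in RA, with log2 differences of -1.84 in sSAN (SE 0.32, edgeR adjusted p = 0.00477) and -1.60 in iSAN (SE 0.21, edgeR adjusted p = 0.00155). A gene at 4.15 ± 3.11 TPM in sSAN and 0.764 ± 0.206 TPM in RA (SD, n = 4 each) was higher in the node by 2.89 (SE 0.62, edgeR adjusted p = 0.0114). A gene at 30.6 ± 6.11 TPM in the left and 4.45 ± 1.37 TPM in RA was higher in the left by 2.81 (SE 0.26, edgeR adjusted p = 2.45e-04), and the same right atrium level stood against 12.1 ± 4.84 TPM in iSAN, a difference of 1.44 (SE 0.27, edgeR adjusted p = 0.00723). ENSRNOG00000025868 was lower in sSAN than in RA, the log2 difference being -1.03 (SE 0.28) and the edgeR adjusted p 0.0275. In iSAN its difference was -1.04 (SE 0.33) with an edgeR adjusted p of 0.0680, and of 0.00310 with the code as a replicate block. Between the atria it was -0.21 (SE 0.23, edgeR adjusted p = 0.694), and with the block -0.18 (SE 0.05, adjusted p = 0.0242). ENSRNOG00000031053 differed from the right atrium by 0.67 (SE 0.25) in sSAN, with an edgeR adjusted p of 0.0775 and a DESeq2 one of 0.0295.

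The deposited transcript TPM show how the reduction was spread over the transcripts of each gene. Of the 79 genes, 33 had 1 transcript above 0 and 46 had several, at most 7. These 46 genes held 93 transcripts of at least 1 TPM, in 45 of them. Of the 93, 85 had a lower failing mean in all 4 choosing regions, for 43 the groups did not overlap in any of them, 8 were higher in at least 1 region and 0 in all 4. Among 32 genes with at least 2 such transcripts, every one of them was lower in all 4 regions for 25 genes. Since the sum over transcripts chose the genes, these numbers are a description.

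The share of a gene's most abundant transcript is not fixed by the rule, and the numbers of genes in which it separated failing from healthy libraries lay near the background. It did so for 6 of 31 genes in iSAN (13.6% of all genes), 4 of 31 in sSAN (8.83%), 4 of 29 in RA (17.9%), 8 of 30 in LA (19.1%) and 4 of 23 in the left ventricle (18.3%). It moved the same way without overlap in all 4 choosing regions for 1 of 28 genes (1.55% of all genes). In that gene, with 5 transcripts, the main one held 80.2 ± 4.78% in healthy and 61.1 ± 9.21% in failing inferior nodes, 83.4 ± 0.613% and 70.0 ± 10.4% in superior nodes, 81.2 ± 5.83% and 63.1 ± 15% in right atria and 81.1 ± 2.35% and 65.0 ± 4.86% in left atria (SD, n = 4 each). In LA its main transcript went from 38 to 5.88 TPM and the others together from 8.78 to 3.11 TPM. These are estimates by kallisto, which divides reads among transcripts that overlap.

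The relative transcript length, derived from counts and TPM, was ordinary for the 77 genes of the group with a healthy mean of at least 1 TPM. Its median lay at percentile 54.5 of all genes of at least 1 TPM, with 22 genes in the longest 25% and 20 in the shortest.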

How the data were processed

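RNA sequencing was done on 38 libraries of 5 heart regions, with groups taken from the titles. Per the submitters' processing notes, the authors used Trimmomatic 0.39 and kallisto 0.48.0. Their genome build and annotation were not given in the sources used here. Deposited by the authors were estimated counts and TPM per gene and per transcript, and the transcript counts were not used. The genes were chosen on the deposited TPM, and the group and all lists were chosen with earlier results of these data known.

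For tests, the deposited estimated counts were rounded, filtered with filterByExpr (minimum 10, total 15), scaled with TMM and fitted with edgeR 4.0.16 (robust quasi-likelihood test, Benjamini-Hochberg adjustment over all genes tested, threshold 0.05), with each fit restricted to the 2 groups compared. Alternatives were DESeq2 1.42.0, limma 3.58.1 on log2 of the deposited TPM plus 1, no filter, DESeq2 size factors, 1 fit over the 38 libraries, a replicate block by code, and fits without each library. The separation of libraries in the left ventricle was recounted on other scales, chosen after seeing the data. The steps were tested on simulated data. Each SE beside an edgeR log2 difference was derived, as the size of the difference over the square root of its F statistic. Transcripts were assigned to genes by matching sums of transcript TPM to gene TPM, which worked for 20871 of 20982 genes and all 79 of the group. Shares of the main transcript were read where it held on average at most 95% and the gene had at least 1 TPM in every library of the region. Genes with any library of the region under 1 TPM were thus left out there.

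The codes were taken to pair the healthy libraries in the replicate block only, and the main fits were unpaired. Deviations from group means of same-coded libraries correlated between 0.16 and 0.17 (superior node and right atrium), 0.12 and 0.23 (inferior node and right atrium) and 0.25 and 0.27 (atria), all above 0.1. Correlations between libraries of different codes were not computed, so these values have no baseline. The pairing in the block therefore comes from the shared codes alone. The rule for named genes took the largest mean reductions, the highest levels, the ends of the left ventricle ranking and the ends of each regional comparison. With no symbol matched it allows 2 IDs, and the first of each of the first 2 parts was taken after the values were seen. The gene lists and cell type markers need symbols and were not applied.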

Additional observations from a re-analysis of the deposited data

How the results depend on the processing

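The number of genes that met the rule was 110 at a ratio of 1.2, 29 at a ratio of 2, 104 with 0.1 TPM added, 262 on TPM rescaled by TMM and 350 on TMM-scaled CPM, and between 72 and 276 when the libraries of 1 code were left out. In the left ventricle the genes called were 0 with edgeR, with DESeq2 size factors, without the count filter and with limma, 9 with DESeq2 and 46 with 1 fit of all 38 libraries, and 0 to 0 without any 1 library. The median log2 difference there lay between -0.79 and -1.07 without any 1 library. Counted in CPM over all 79 genes, those with a lower failing mean numbered 67 to 72 in these settings, against 69 with every library. Those without overlap numbered 58 to 62, against 58 with every library, where 17.3% of all genes tested did not overlap in this direction. Leaving out a library cannot lower the number without overlap. Among healthy regions, the fit of all 38 libraries called 6 of the 79 genes for the superior node. It called 2 for the inferior node and 4 for the left atrium. Of all 15770 genes it called, in this order, 1560 higher and 939 lower, 950 and 227, and 127 and 98. Leaving out 1 library gave 10 to 31, 12 to 19 and 12 to 20 of the 79. Of all 14148 to 14380 genes, these fits called 1257 to 2139 higher and 680 to 1490 lower for the superior node. For the inferior node they called 1064 to 1867 and 499 to 1282, and for the left atrium 482 to 558 and 474 to 548. With the code as a replicate block 27, 25 and 38 passed, and of these only the 38 of the left atrium moved by over 1.5 times. No paired analysis was possible because failing and healthy hearts share no code, so the left ventricle has no such fit. The causes of these shifts were not tested. With 2 healthy ventricles, precision in that region is limited by their number.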
